A study of Mus musculus with 20 samples.

Results

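The genes described here are the cytochrome P450 genes of families 2 and 3 in mouse liver, without *Cyp2e1* and *Cyp2f2*. They were taken as the protein-coding genes of the GENCODE M21 annotation whose symbol is Cyp2 or Cyp3 followed by a subfamily letter and a number. The rule found 53 genes among 46603 identifiers counted. No measured value entered the rule, although the members were chosen with earlier results of these data known. Bulk RNA sequencing of liver had been made in 4 groups of 5 libraries from male mice of 2 months. Wild-type (WT) mice were C57BL/6J, purchased from The Jackson Laboratory. EedHepKO mice (KO) carried Cre under the albumin promoter, which acts in hepatocytes, with a floxed *Eed* allele. EED is a core subunit of Polycomb repressive complex 2 (PRC2), which places the repressive H3K27me3 mark. Other liver cells of the KO mice should keep *Eed*. In each genotype the baseline libraries came from the lobes removed at partial hepatectomy (PHx), which resects most of the liver, and the libraries after PHx from the remaining lobes at 30 h (1 mouse), 40 h (2 mice) and 48 h (2 mice). In this design genotype cannot be told apart from colony of origin, nor the loss of *Eed* from the Cre of the KO mice. Nor can the response to PHx be told apart from the lobe sampled.

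Enzymes of these families sit in the membrane of the endoplasmic reticulum. They oxidise drugs, steroids, fatty acids and other lipids with electrons from the reductase POR, around a haem group. In liver many of them are concentrated in hepatocytes near the central vein, several are induced by foreign compounds through the receptors CAR and PXR, and some differ between the sexes through the pattern of growth hormone release and STAT5b. Most of the genes lie in clusters of close copies: subfamilies 2A and 2B on chromosome 7, 2C on chromosome 19, 2D on chromosome 15, 2J on chromosome 4 and 3A on chromosome 5.

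Between 21634890 and 30461351 counts were assigned per library. *Eed* itself ranged from 14.6 to 23.2 CPM in the 10 WT libraries and from 2.75 to 7.52 CPM in the 10 KO libraries, so every library was on the side of its label. CPM is the count divided by the library size, scaled by the trimmed mean of M values (TMM), times 1000000. At baseline the summed level of 5 hepatocyte markers was 106445 to 126166 CPM in WT and 69059 to 93785 CPM in KO. Over the same libraries 5 stellate markers summed to 135 to 213 CPM in WT and 342 to 379.6 CPM in KO, 5 macrophage markers to 116 to 192 and 269 to 330.4 CPM, 5 cholangiocyte markers to 23.3 to 58.2 and 55.4 to 359 CPM, and 5 proliferation genes to 1.70 to 4.03 and 16.1 to 97.2 CPM. The part of these in the results below was not tested. Fewer cells of a type and less RNA per cell cannot be told apart in bulk tissue. Scaling matters for the genotype comparison: by library size alone the median log2 difference of all 14661 genes tested moved by 0.48 at baseline and by 0.38 after PHx.

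Most of the P450 RNA came from a few genes. *Cyp3a11*, a main drug-metabolising enzyme that is induced through PXR, was the most abundant per length in all 4 groups, with a mean of 1708 CPM per kb of exon in WT and 2338 in KO at baseline. *Cyp2c29* followed it at 820.0 and 473 CPM per kb. Next in WT came *Cyp2d9* (619), *Cyp2d10* (553) and *Cyp2d26* (533). The lowest of the tested genes in WT at baseline were *Cyp2c65* and *Cyp2s1*, at 0.0104 and 0.0115 CPM per kb. The most abundant 2J gene was *Cyp2j5*, at 376 CPM per kb in WT and 145 in KO at baseline, and the most abundant 2A gene was *Cyp2a12* at 226 and 182. In KO at baseline *Cyp2c55* stood in place 13 of 53 by this measure and *Cyp2b10* in place 17, against places 23 and 29 in WT. *Cyp2c67* stood in place 21 in KO and in place 13 in WT.

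**Figure D1:**
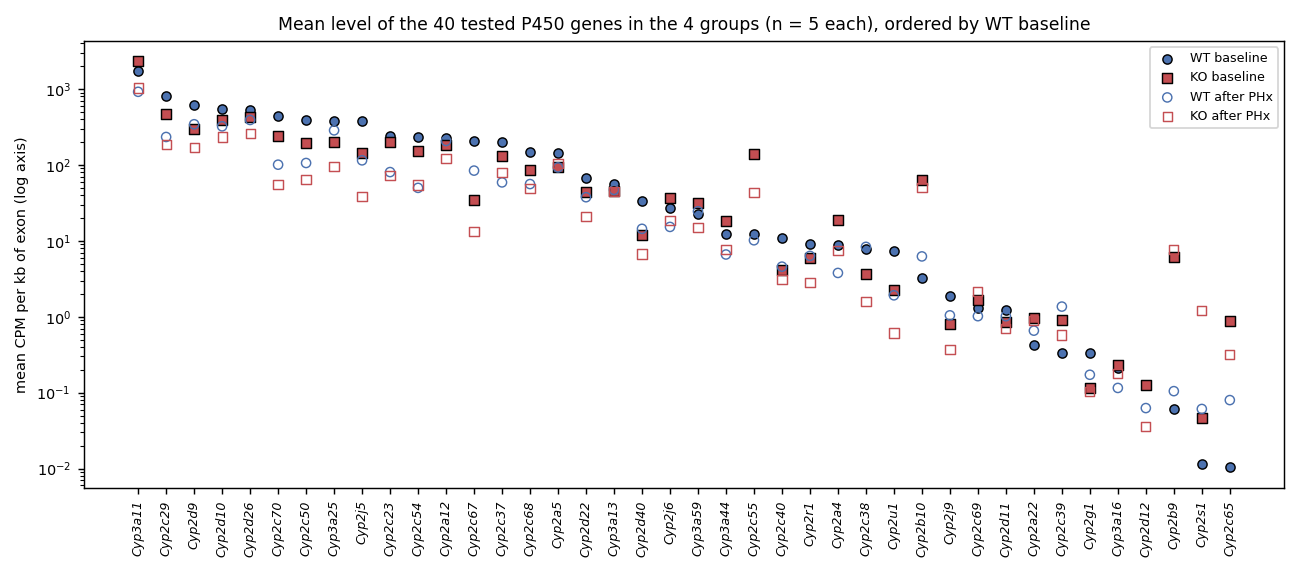
Mean CPM per kb of exon (log axis) of the 40 tested P450 genes, ordered by WT baseline, with filled symbols for baseline and open symbols for after PHx (n = 5 per group). Cyp3a11 is the highest point in each of the 4 groups, and Cyp2b10, Cyp2c55, Cyp2b9 and Cyp2c65 lie far above their WT points in KO.

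All 53 genes together made up 1.39% to 1.85% of all counts in WT at baseline and 1.97% to 2.33% in KO, so the raw share was higher in KO without overlap. On the TMM scale the same sum was 20808 to 23958 CPM in WT and 16609 to 23732 CPM in KO, which overlap, and the mean was lower in KO (20386 ± 2610 against 22215 ± 1322 CPM, SD, n = 5). The direction of the summed level therefore turned with the scaling. *Cyp3a11* alone held 32.6% to 45.3% of the P450 counts in WT and 53.6% to 63.6% in KO at baseline, a ratio within each library that does not depend on scaling.

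The first comparison set KO against WT in the resting liver. In KO 2 genes of subfamily 2B and 2 of 2C were many-fold higher, and genes of 2C, 2D, 2J, 2U and 3A were lower. Of the 40 genes that passed the filter on low counts, 4 were called higher and 6 lower in KO (edgeR quasi-likelihood test, adjusted p under 0.05 over all 14661 genes). Over all genes tested 11.1% were called higher and 4.89% lower, so the members' share called higher (10%) was near the background and the share called lower (15%) above it. The median log2 difference was -0.51 over the 40 members and -0.03 over all genes. By library size alone 8 members were higher and 4 lower, against 24% and 0.771% of all genes. In a fit of the 10 baseline libraries alone, 10 of 37 members were higher and 16 lower, against 21.4% and 18% of all 13286 genes in that fit. The groups did not overlap at baseline for 5 members that were higher in KO and 12 that were lower, where 15.6% and 12.2% of all genes were higher and lower in that way.

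Subfamily 2B held the gene with the highest log2 difference. *Cyp2b10*, the classic gene induced through CAR (chr7:25897620-25926624, plus strand, build mm10, as are all gene positions here), was at 2.15, 10.7, 16.3, 4.49 and 0.826 CPM in the first WT library and WT mice 2 to 5. It was at 70.5, 51.9, 227, 111 and 204 CPM in KO mice 7, 8, 10, 11 and 12. Values of single libraries are given in that order throughout, with WT mouse 1 first after PHx. The first WT baseline library carries no mouse number in its label, so it is not known to come from WT mouse 1. Every KO library was above every WT library. The means were 6.89 ± 6.48 and 133 ± 78.6 CPM (SD, n = 5), and the difference fitted by edgeR was 19.2-fold (log2 fold change 4.27, SE 0.79, adjusted p = 0.000951). *Cyp2b9*, expressed mainly in female liver (chr7:26173411-26210661, plus strand), was at 0.065, 0.30, 0.206, 0 and 0 CPM in WT, from 11 counts in all, and at 1.36, 3.89, 20.1, 6.23 and 25.7 CPM in KO. Its groups did not overlap, while the KO libraries themselves ranged widely (log2 fold change 6.6, SE 1.46, adjusted p = 0.00408). Leaving out any one library left these calls in place, with a log2 fold change of 3.98 to 4.86 for *Cyp2b10* and 6.07 to 7.36 for *Cyp2b9*.

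*Cyp2b13*, a close neighbour of *Cyp2b9* that is likewise expressed mainly in female liver (chr7:26061497-26096197, plus strand), failed the filter on low counts. It had 0 counts in the 5 WT baseline libraries and 6, 4, 12, 4 and 8 in the KO libraries, at least 8.70-fold higher against a floor of 3 counts over the group. Without the filter its adjusted p was 0.00579 (edgeR quasi-likelihood test). The promoters of these 3 genes are shown because these neighbours were all higher in KO; those of *Cyp2b10* and *Cyp2b13* were added after their values were seen. Each run covers 250 bases before and 50 after the start in RefSeq (build GRCm38.p6), and capitals mark AGGTCA, a half-site bound by nuclear receptors, searched on both strands along with TTCNNNGAA (bound by STAT5) and CAAAGTCCA (bound by HNF4).
Cyp2b9 (chr7:26173159-26173458, plus strand): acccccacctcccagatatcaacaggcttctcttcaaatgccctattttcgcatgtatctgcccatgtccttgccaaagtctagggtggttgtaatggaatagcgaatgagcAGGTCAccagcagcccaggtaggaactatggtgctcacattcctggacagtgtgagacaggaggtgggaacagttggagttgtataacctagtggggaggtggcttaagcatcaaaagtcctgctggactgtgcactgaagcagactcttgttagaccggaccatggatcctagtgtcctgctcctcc
Cyp2b13 (chr7:26061245-26061544, plus strand): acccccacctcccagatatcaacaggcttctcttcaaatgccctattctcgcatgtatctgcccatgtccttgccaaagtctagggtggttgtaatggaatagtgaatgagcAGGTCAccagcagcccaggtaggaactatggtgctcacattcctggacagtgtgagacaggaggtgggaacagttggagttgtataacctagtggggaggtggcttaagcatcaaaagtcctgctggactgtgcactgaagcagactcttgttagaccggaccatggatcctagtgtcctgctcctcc
Cyp2b10 (chr7:25897408-25897707, plus strand): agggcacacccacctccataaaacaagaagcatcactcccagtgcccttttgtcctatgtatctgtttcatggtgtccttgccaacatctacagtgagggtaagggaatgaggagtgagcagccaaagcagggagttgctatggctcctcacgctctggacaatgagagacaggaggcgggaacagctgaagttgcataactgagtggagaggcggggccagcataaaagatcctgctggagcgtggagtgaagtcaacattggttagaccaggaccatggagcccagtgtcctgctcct
The *Cyp2b9* and *Cyp2b13* runs were identical at 298 of 300 bases and carried AGGTCA at the same place, 138 bases before the start. Against *Cyp2b10* the *Cyp2b9* run matched at 223 of 289 aligned bases. None of the 3 motifs was found in the *Cyp2b10* window. AGGTCA was present in 16.3% of all 32851 promoters of this length, TTCNNNGAA in 8.30% and CAAAGTCCA in 0.475%. No match says only that these letters are absent from this window.

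Subfamily 2C moved both ways, and its 15 genes lie in a row, apart from *Cyp2c23* farther along the chromosome. Many are close copies, but in coding sequence *Cyp2c55* is at most 77.7% and *Cyp2c70* at most 70.8% identical to another 2C gene. *Cyp2c55*, induced through CAR and PXR (chr19:39007019-39042693, plus strand), was at 20.6, 27.8, 23.2, 29.2 and 20.4 CPM in WT and at 195, 190.4, 329, 317 and 347 CPM in KO. The KO libraries all stood far above the WT libraries, 11.4-fold on average (log2 fold change 3.51, SE 0.95, adjusted p = 0.0153). *Cyp2c65*, known mainly from the intestine (chr19:39061015-39093944, plus strand), was at 0, 0.100, 0, 0 and 0 CPM in WT and at 1.1, 1.39, 1.79, 2.66 and 1.6 CPM in KO. With 2 counts in WT against 216 in KO the ratio was 82.9, with a 95% counting interval of 22.7 to 689, and the gene was called higher (adjusted p = 0.000374). Its highest value in any library was 2.66 CPM. Of 5 intestinal markers, *Cdx2*, *Muc2* and *Alpi* had 0 counts in all 10 baseline libraries, *Vil1* was called higher and *Fabp2* lower in KO, and the 5 summed to 64.0 to 71.6 CPM in WT and 29.7 to 44.6 CPM in KO. Their part in this result was not tested.

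*Cyp2c67* was the most strongly lowered member (chr19:39608842-39649051, minus strand). It was at 347, 318, 393, 340.1 and 385 CPM in WT and at 33.6, 72.6, 40.9, 86.3 and 66.2 CPM in KO. Every KO library was below every WT library, 5.95-fold on average (log2 fold change -2.57, SE 0.59, adjusted p = 0.00521). Its neighbours *Cyp2c68*, *Cyp2c40* and *Cyp2c69* are 97.2%, 97.7% and 97.7% identical to it over the coding sequence. Reads that map to several of these copies are not in counts of uniquely mapped reads. The log2 fold changes of these neighbours were -0.81, -1.40 and 0.35, none called (adjusted p = 0.299, 0.0683 and 0.829). In a fit of the baseline libraries alone *Cyp2c68* and *Cyp2c40* were called lower as well (log2 fold change -0.79 and -1.37, adjusted p = 0.000234 and 0.00147). The promoters of the members with the largest calls in each direction that had an entry are printed to show what opposite members of one cluster carry, with CAAAGTCCA in capitals.
Cyp2c65 (chr19:39060756-39061055, plus strand): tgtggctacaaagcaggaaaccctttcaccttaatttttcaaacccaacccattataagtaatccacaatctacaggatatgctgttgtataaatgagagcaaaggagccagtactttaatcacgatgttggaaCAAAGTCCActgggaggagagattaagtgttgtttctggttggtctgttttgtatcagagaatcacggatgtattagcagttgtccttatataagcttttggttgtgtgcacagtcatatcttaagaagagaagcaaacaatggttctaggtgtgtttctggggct
Cyp2c67 (chr19:39648993-39649292, minus strand): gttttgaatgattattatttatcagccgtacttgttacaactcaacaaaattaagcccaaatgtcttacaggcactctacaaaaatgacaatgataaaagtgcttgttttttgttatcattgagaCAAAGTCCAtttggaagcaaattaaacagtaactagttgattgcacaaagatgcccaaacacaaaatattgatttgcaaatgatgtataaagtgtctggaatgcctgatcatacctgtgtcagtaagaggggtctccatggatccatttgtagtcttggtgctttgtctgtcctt
Both carried 1 match on the printed strand, 116 bases before the start in *Cyp2c65* and 125 bases before it in *Cyp2c67*. The same motif was in 8 of the 48 member promoters, 6 of them of 2C genes, which included members that were higher, lower and not called.

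*Cyp2c29*, the most abundant 2C gene and inducible through CAR, was at 2159, 2258, 2739, 2897 and 2497 CPM in WT and at 978, 1107, 1295, 1817 and 2047 CPM in KO. The groups did not overlap, but the difference was not called in the fit over all 20 libraries (log2 fold change -0.79, SE 0.72, adjusted p = 0.491). In the fit of the 10 baseline libraries alone it was called (adjusted p = 0.00635). *Cyp2c70*, which in mouse makes muricholic bile acids, was at 870.5, 749, 897, 1018 and 813 CPM in WT and at 457, 678, 453, 461 and 369 CPM in KO, again without overlap and without a call (log2 fold change -0.85, SE 0.50, adjusted p = 0.262), and was called in the baseline fit (adjusted p = 0.00143). *Cyp2c39* was at 0.325, 0.90, 1.13, 0.229 and 0.459 CPM in WT and at 1.39, 1.18, 0.793, 1.04 and 3.85 CPM in KO, where the library of mouse 12 stood apart (log2 fold change 1.43, SE 0.67, adjusted p = 0.158). It was called higher by library size alone (1.86, adjusted p = 0.0462) and in the baseline fit (1.44, adjusted p = 0.0447). In all, 10 of the 14 tested 2C genes had a negative log2 difference, with a median of -0.71.

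All 7 tested 2D genes had a negative log2 difference at baseline, with a median of -0.52, and 2 of them were called. By library size alone *Cyp2d12* and *Cyp2d26* turned positive, uncalled. *Cyp2d9*, a steroid 16-alpha-hydroxylase of male liver (chr15:82433437-82456845, plus strand), was at 1594, 1546, 1724, 1669 and 1699 CPM in WT and at 626, 731, 752, 877 and 943 CPM in KO. The WT libraries lay close together and every KO library was below them, 2.1-fold on average (log2 fold change -1.07, SE 0.27, adjusted p = 0.00932). *Cyp2d40* (chr15:82759833-82764183, minus strand) was at 62.8, 54.4, 67.7, 69.7 and 50.6 CPM in WT and at 20.4, 20.3, 18, 27.3 and 23.1 CPM in KO, again without overlap (log2 fold change -1.48, SE 0.39, adjusted p = 0.0128). *Cyp2d26*, the most abundant 2D gene per length over all libraries, was at 833, 853, 989, 1155 and 947 CPM in WT and at 638, 569.9, 747, 799 and 1055 CPM in KO, where the ranges overlapped (log2 fold change -0.33, SE 0.29, adjusted p = 0.473).

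In subfamily 2A no gene was called in the fit of all 20 libraries. *Cyp2a22* was at 0.975, 2.8, 1.44, 1.38 and 0.734 CPM in WT and at 2.09, 2.2, 2.55, 3.49 and 6.38 CPM in KO, with overlap (log2 fold change 1.18, SE 0.51, adjusted p = 0.12). It was called higher by library size alone (1.62, adjusted p = 0.0172), in the baseline fit (1.20, adjusted p = 0.0298) and with a mean per time point (adjusted p = 0.0484). *Cyp2a4*, a steroid 15-alpha-hydroxylase expressed mainly in female liver, was at 1.17, 0.40, 73.2, 0.688 and 0.275 CPM in WT and at 82.2, 63.1, 3.55, 6.36 and 6.01 CPM in KO. WT mouse 3 stood at 73.2 CPM while the other 4 WT libraries were at or below 1.17 CPM. Over all libraries the gene was not called (log2 fold change 1.09, SE 1.5, adjusted p = 0.666); without WT mouse 3 at baseline the log2 fold change was 5.70 and the gene was called (adjusted p = 0.0328). *Cyp2a5*, the coumarin 7-hydroxylase, is 98.5% identical to *Cyp2a4* over the coding sequence. Reads that map to both are not in counts of uniquely mapped reads, so both levels can be understated. *Cyp2a5* was at 368, 308, 187, 362 and 252 CPM in WT, lowest in mouse 3, and at 173, 126, 159, 225 and 295 CPM in KO (log2 fold change -0.60, SE 0.41, adjusted p = 0.342). *Cyp2a12*, a bile acid hydroxylase, was at 747, 841, 808, 755 and 747 CPM in WT and at 484, 654, 599, 634 and 784 CPM in KO (log2 fold change -0.31, SE 0.23, adjusted p = 0.391).

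Of the 3 tested 2J genes *Cyp2j9* was called lower, at a mean of 6.3 ± 2.12 CPM in WT and 2.67 ± 0.731 CPM in KO (log2 fold change -1.24, SE 0.38, adjusted p = 0.0303). This call was lost by library size alone (log2 fold change -0.73, adjusted p = 0.168) and without the filter on low counts (adjusted p = 0.0724). It was also lost in 8 of the 10 fits that left out a baseline library (adjusted p 0.0521 to 0.0871), all but those without WT mouse 2 or KO mouse 8. *Cyp2j6* went the other way, at 108, 96.1, 79.7, 104 and 98.3 CPM in WT and at 132, 141, 157, 125 and 108 CPM in KO, without a call (log2 fold change 0.45, SE 0.19, adjusted p = 0.112). The lowest KO value, 108.4 CPM, was just above the highest WT value, 108.2 CPM. It was called higher by library size alone (0.93, adjusted p = 0.00238) and in the baseline fit (0.47, adjusted p = 0.00738). *Cyp2j5*, an arachidonic acid epoxygenase of liver and kidney, was at 876, 874, 939.6, 824 and 896 CPM in WT and at 264, 415, 363, 359.6 and 298 CPM in KO. Every KO library was well below the WT libraries, yet the gene was not called (log2 fold change -1.38, SE 0.66, adjusted p = 0.167) except in the baseline fit (adjusted p = 7.14e-06). *Cyp2u1*, a fatty acid hydroxylase on chromosome 3 (chr3:131288441-131303227, minus strand), was at 47.7, 39.1, 21.4, 41.9 and 45 CPM in WT and at 9.69, 8.79, 11.8, 15.8 and 13.7 CPM in KO. The groups did not overlap, with WT mouse 3 the lowest of its group, and the gene was called lower, 3.27-fold (log2 fold change -1.71, SE 0.39, adjusted p = 0.00532). An antisense gene, *4930534D22Rik*, overlaps 548 bases of its exons with 29 counts over all libraries, and without a stated strand setting reads of the 2 genes cannot be told apart. *Cyp2r1*, the vitamin D 25-hydroxylase, was at 18.5, 18.1, 19.2, 18.8 and 20.1 CPM in WT and at 10.5, 12.1, 11.3, 12.6 and 15.7 CPM in KO, without overlap and without a call (log2 fold change -0.61, SE 0.31, adjusted p = 0.19), except in the baseline fit (-0.58, adjusted p = 0.00179).

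Subfamily 3A held the most abundant gene and 1 call. *Cyp3a11* (chr5:145854426-145879964, minus strand) was at 8026, 10517, 9967, 7102 and 7869 CPM in WT and at 10363, 13484, 12525, 10434 and 12719.9 CPM in KO. The ranges overlapped and the gene was not called (log2 fold change 0.45, SE 0.51, adjusted p = 0.59), although in the baseline fit it was called higher with a log2 fold change of 0.48 (adjusted p = 0.0229). *Cyp3a25* (chr5:145977194-146009618, minus strand) was at 947, 637, 811, 824 and 711 CPM in WT and at 351, 497, 419, 365 and 428 CPM in KO. Its groups did not overlap and it was called lower (log2 fold change -0.93, SE 0.29, adjusted p = 0.0326), but 7 of the 10 fits that left out a baseline library put it above the threshold, with adjusted p up to 0.131 without KO mouse 7. The other 6 lacked the first WT library, WT mouse 3 or 4, or KO mouse 10, 11 or 12 (adjusted p 0.0565 to 0.0738). The call was also lost by library size alone (log2 fold change -0.45, adjusted p = 0.163) and without the filter on low counts (adjusted p = 0.0875). *Cyp3a16*, a fetal and female form, was at 0.39, 0.35, 0.309, 0.275 and 0.505 CPM in WT and at 0.299, 0.507, 0.448, 0.332 and 0.423 CPM in KO, with overlapping ranges (log2 fold change 0.13, SE 0.50, adjusted p = 0.89).

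**Figure D2:**
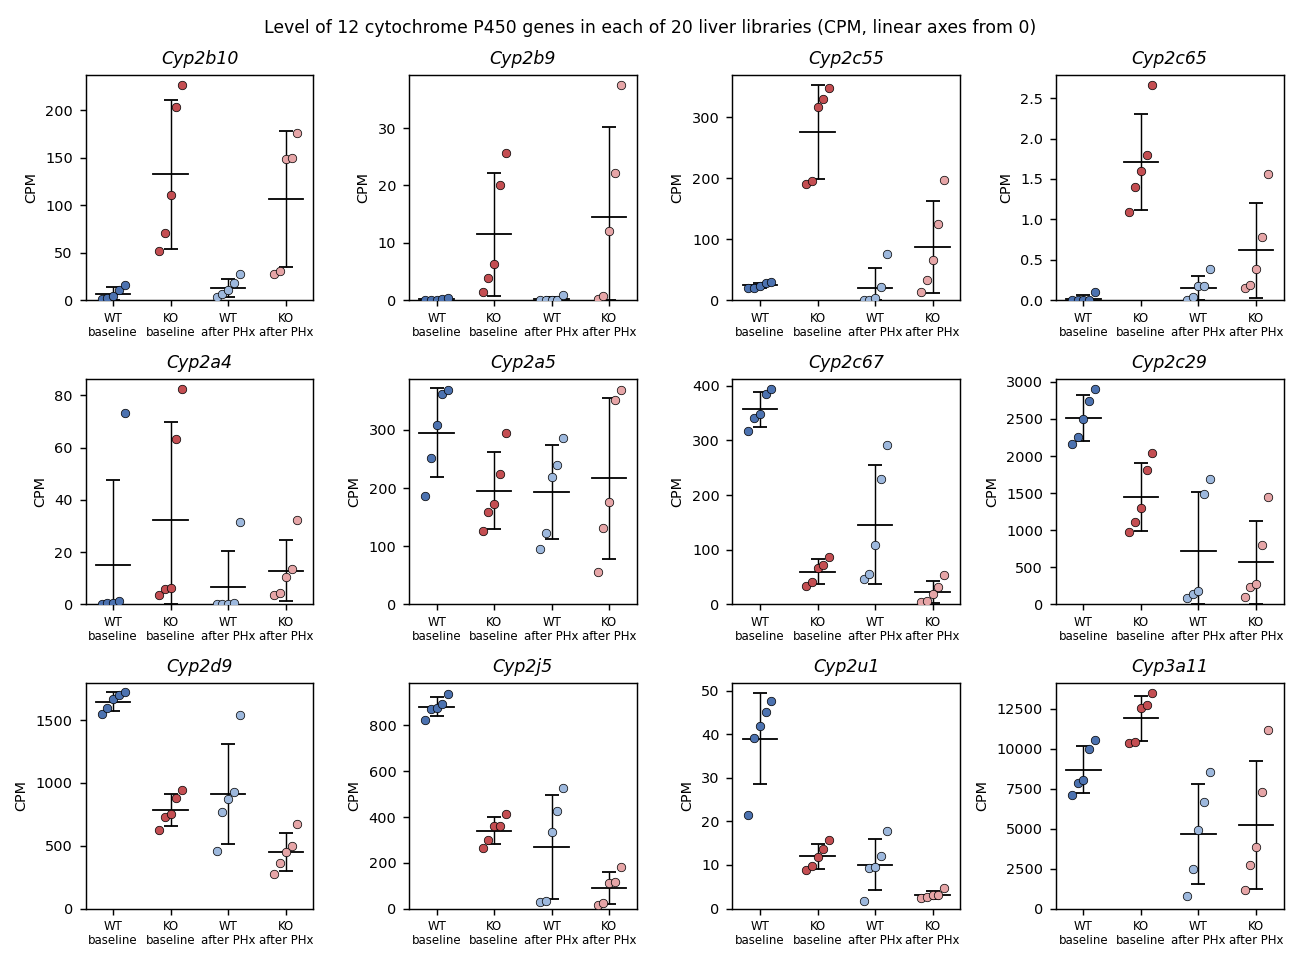
CPM (linear axes from 0) of 12 P450 genes in each of the 20 libraries, with the mean and SD of the 5 libraries of each group (lower bars end at 0). In KO at baseline Cyp2b10, Cyp2b9, Cyp2c55 and Cyp2c65 lie above every WT baseline library, and Cyp2c67, Cyp2c29, Cyp2d9, Cyp2j5 and Cyp2u1 below.

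The second comparison put the same genotypes side by side in the regenerating liver. Here 3 members were called higher and 9 lower in KO, against 16% and 8.2% of all genes. The 22.5% of members called lower was above that background and the 7.5% called higher below it. Leaving out 1 library gave 2 to 5 members higher and 6 to 15 lower. The median log2 difference was -0.51 over the members and -0.01 over all genes. By library size alone 5 were higher and 5 lower, against 26.6% and 2.02% of all genes. In a fit of the 10 libraries after PHx alone 2 were higher and 2 lower, against 8.12% and 1.57%. The summed hepatocyte markers were 60790.0 to 112778 CPM in WT and 36549 to 82109 CPM in KO after PHx. The 5 stellate markers summed to 121 to 209.6 CPM in WT and 228 to 414.5 CPM in KO. The 5 macrophage markers summed to 47.9 to 178 CPM in WT and 43.4 to 243 CPM in KO. In KO *Apoa1* and *Serpina1a* of the hepatocyte markers were called lower, and *Col1a1*, *Dcn* and *Csf1r* of the others higher. The part of these markers in the results was not tested. In only 1 member were all KO libraries above all WT libraries (*Cyp2b10*) and in 2 below (*Cyp2j9* and *Cyp3a25*), where 7.05% and 2.97% of all genes were separated in that way. Of the 10 members called at baseline, 8 were called in the same direction after PHx, which is 80% of the first list and 66.7% of the second. The matching share over all genes was not computed, so these shares have no background beside them. By their labels, the libraries come from the same mice at both stages, apart from the first WT library.

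Of the 2B genes *Cyp2b10* and *Cyp2b9* were called higher in KO here too. *Cyp2b10* was at 6.98, 27.3, 10.3, 17.7 and 3.57 CPM in WT and at 30.4, 27.4, 150.0, 177 and 149 CPM in KO, 8.09-fold higher (log2 fold change 3.02, SE 0.74, adjusted p = 0.00576). The lowest KO value, 27.4 CPM, was just above the highest WT value, 27.3 CPM. *Cyp2b9* was at 0.872, 0, 0.0761, 0 and 0.0343 CPM in WT and at 0.24, 0.681, 37.5, 22.2 and 12.1 CPM in KO, with the 2 KO libraries of 48 h (mice 7 and 8) within the WT range (log2 fold change 6.24, SE 1.37, adjusted p = 0.00261). *Cyp2b13* had 0, 0, 1, 0 and 0 counts in WT and 0, 6, 5, 6 and 1 in KO, a ratio of the sums (1 and 18) of 14.4 with a 95% counting interval of 2.27 to 599, and was not called in the fit without the filter (adjusted p = 0.0553).

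Both 2C genes that were high at baseline missed the threshold after PHx. *Cyp2c55* was at 21.6, 0.957, 3.04, 0.744 and 75.2 CPM in WT and at 32.4, 12.8, 125, 66.1 and 197 CPM in KO (log2 fold change 2.09, SE 0.90, adjusted p = 0.0959). The WT library of mouse 5 alone reached 75.2 CPM, and without it the log2 fold change was 3.77 (adjusted p = 0.00520). *Cyp2c65* was at 0.0436, 0.174, 0.38, 0 and 0.172 CPM in WT and at 0.39, 0.154, 1.56, 0.778 and 0.189 CPM in KO (log2 fold change 1.96, SE 0.77, adjusted p = 0.0701). It was called without WT mouse 3 (log2 fold change 2.60, adjusted p = 0.0366) and without KO mouse 12 (2.17, adjusted p = 0.0484). It was called as well by library size alone (2.32, adjusted p = 0.0295), by DESeq2 (adjusted p = 0.0387) and with a mean per time point (adjusted p = 0.0469), and *Cyp2c55* with a mean per time point (2.56, adjusted p = 0.00883). *Cyp2c67* remained low in KO, at 4.85, 5.56, 31.4, 19.1 and 54.2 CPM against 228, 56, 108, 45.9 and 291 CPM in WT (log2 fold change -2.67, SE 0.59, adjusted p = 0.00276). The ranges overlapped only in that KO mouse 12, the 30 h library, lay above WT mouse 4.

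Among the other members lowered after PHx, *Cyp3a25* showed the smallest adjusted p. It was at 425, 957, 619.9, 550.3 and 423 CPM in WT and at 94, 132, 230.1, 188 and 352 CPM in KO, 2.99-fold lower without overlap (log2 fold change -1.58, SE 0.29, adjusted p = 0.000638). *Cyp2u1* was at 17.8, 9.44, 11.9, 1.63 and 9.37 CPM in WT and at 3.15, 2.42, 4.77, 3.11 and 2.56 CPM in KO, where the WT library of mouse 4 lay below all of KO (log2 fold change -1.65, SE 0.40, adjusted p = 0.00492). *Cyp2d9* was at 929.9, 1544, 769.5, 869.9 and 455 CPM in WT and at 494, 362, 449, 273 and 672 CPM in KO (log2 fold change -1.02, SE 0.26, adjusted p = 0.0082). *Cyp2r1* was at 15.3, 9.48, 10.9, 8.69 and 22.7 CPM in WT and at 2.34, 5.6, 11.2, 6.25 and 4.69 CPM in KO (log2 fold change -1.16, SE 0.31, adjusted p = 0.0107). For both, the highest KO value exceeded the lowest WT value. *Cyp2a12* was at 664, 929, 884, 514 and 587 CPM in WT and at 303, 271, 521, 352 and 642 CPM in KO (log2 fold change -0.78, SE 0.23, adjusted p = 0.0188); its call was lost without KO mouse 7, 8 or 11 (adjusted p = 0.0693, 0.0681 and 0.0577), by library size alone (log2 fold change -0.45, adjusted p = 0.0582) and in the fit of the libraries after PHx alone (adjusted p = 0.147). In that fit the calls of *Cyp2u1*, *Cyp2d9* and *Cyp2r1* were lost too (adjusted p = 0.0649, 0.0943 and 0.119), and that of *Cyp2r1* also by library size alone (adjusted p = 0.0727). *Cyp2d22*, *Cyp2d40* and *Cyp2j9* were the remaining 3, with log2 fold changes of -0.86, -1.11 and -1.51. In the fit of the libraries after PHx alone *Cyp2d22* and *Cyp2j9* lost their calls (adjusted p = 0.14 and 0.0772). The call of *Cyp2d22* was also lost by library size alone (adjusted p = 0.0898) and without WT mouse 2 or 3 or KO mouse 7, 8 or 11 (adjusted p 0.0624 to 0.0915). The call of *Cyp2d40* was lost in 6 of the 10 fits that left out a library: WT mouse 1, 4 or 5, or KO mouse 7, 8 or 11, with adjusted p between 0.0551 and 0.158. It was also lost by library size alone, without the filter on low counts, in the fit of the libraries after PHx alone and without both 30 h libraries (adjusted p = 0.0743, 0.0554, 0.209 and 0.0999). With a mean per time point *Cyp2j5*, *Cyp2c70* and *Cyp2d26* were called lower too (adjusted p = 0.0109, 0.0313 and 0.0309), *Cyp2j5* also by DESeq2 (adjusted p = 0.0496) and *Cyp2c70* also without both 30 h libraries (adjusted p = 0.0176).

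*Cyp2s1*, known mainly from epithelia outside liver, was called higher in KO after PHx (log2 fold change 4.25, SE 1.19, adjusted p = 0.0132). It was at 0.0436, 0, 0.304, 0.815 and 0.343 CPM in WT and at 0.659, 1.54, 1.6, 25.6 and 0.237 CPM in KO, so a single library, that of mouse 11, held 922 of the 1061 KO counts. Without it the log2 fold change was 1.67 and the gene was not called (adjusted p = 0.205), nor was it in the fit of the libraries after PHx alone (adjusted p = 0.0771). The same library had the highest *Vil1* (63.8 CPM, against 0.24 to 8.59 in the other 4 KO libraries after PHx) and *Krt19* (49.1 CPM, against 2.65 to 11.03). Of the 5 cholangiocyte markers 4 (*Epcam*, *Krt19*, *Krt7* and *Sox9*) were called higher in KO after PHx, and the 5 summed to 20.9 to 239 CPM in WT and 119.9 to 561 CPM in KO. The part of these epithelial genes in the result was not tested.

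**Figure D3:**
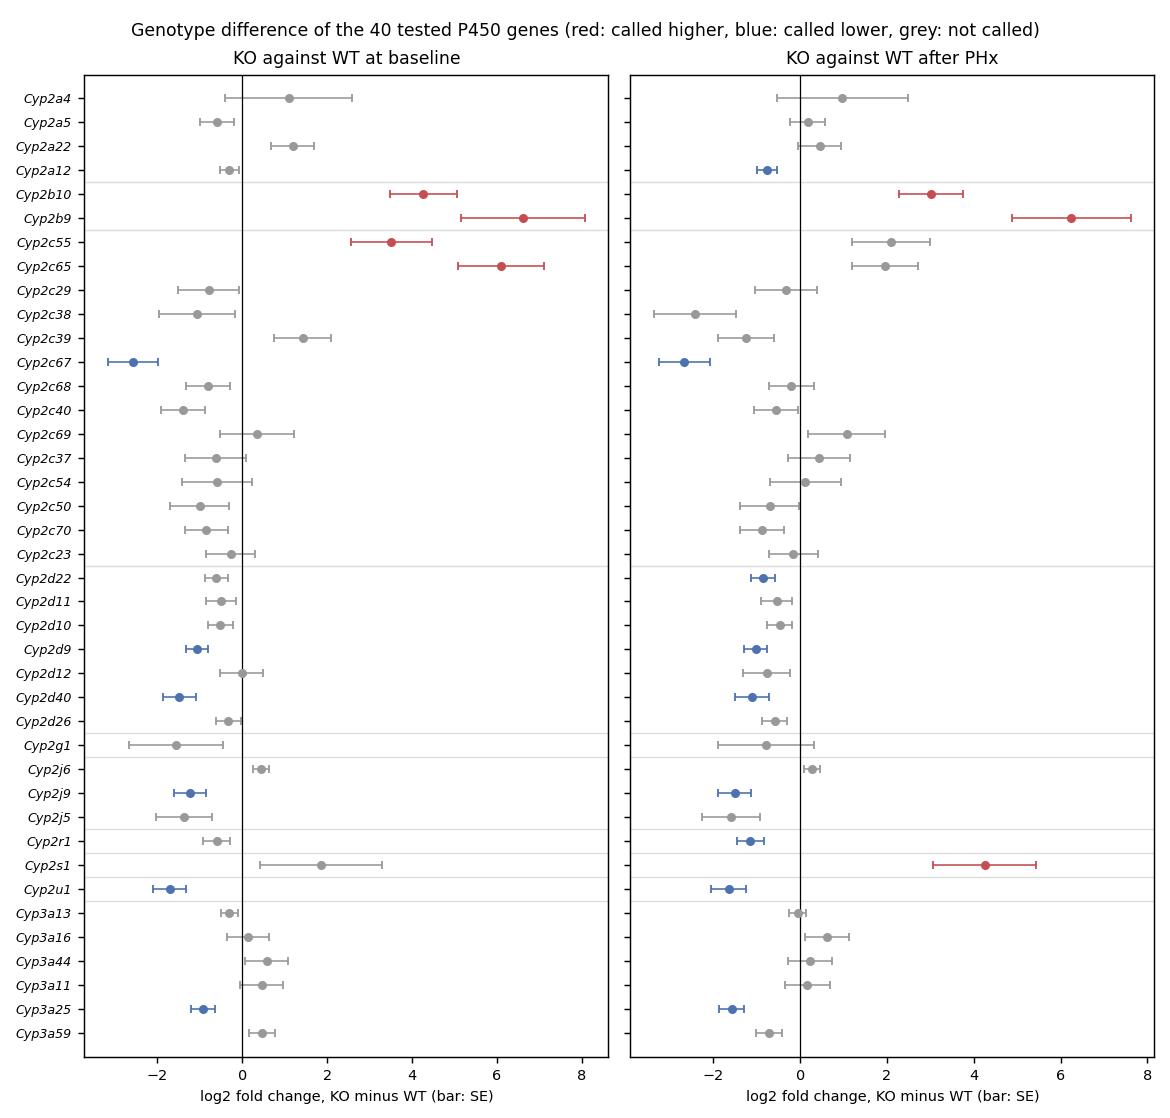
Log2 fold change of KO against WT (points) with its standard error (bars) for the 40 tested P450 genes at baseline (left) and after PHx (right), by subfamily. Cyp2b10 and Cyp2b9 lie far to the right in both panels, and Cyp2c67, Cyp2d9, Cyp2u1 and Cyp3a25 are called lower in both; the point of Cyp2c65 at baseline rests on 2 WT counts.

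The response to PHx was mostly a fall, in both genotypes. In WT 1 member was called higher and 6 lower, against 11.4% and 8.68% of all genes, with a median log2 change of -0.84 over the members and 0.04 over all genes. In KO 1 was called higher and 11 lower, against 17.5% and 12.1% of all genes, with medians of -1.02 and 0.10. The members' shares called lower were 15% in WT and 27.5% in KO, both above the background on the TMM scale with all libraries. Leaving out 1 library gave 3 to 11 members lower in WT and 6 to 19 in KO. Of the 40 members 32 had a negative change in WT and 36 in KO. By library size alone 5 of those in WT (*Cyp2a12*, *Cyp2c55*, *Cyp2c69*, *Cyp2d11* and *Cyp3a13*) and 3 in KO (*Cyp2a22*, *Cyp2g1* and *Cyp3a13*) turned positive. With the mouse as a block 14 members fell and 0 rose in WT, where 7.53% of all genes fell and 6.06% rose, and 16 fell and 0 rose in KO, where 11.8% fell and 10.7% rose. The WT block rests on 4 pairs, since the first WT baseline library, without a mouse number, and that of WT mouse 1 at 30 h form none. Leaving out both 30 h libraries, without a block, also gave 14 in WT. By library size alone 2 rose and 2 fell in WT, against 25.9% and 3.97% of all genes, so that the share that fell (5%) was near the background. In KO 1 rose and 9 fell by library size alone, against 27.7% and 6.55%. Fitting a mean per time point gave 17 members that fell in WT and 27 in KO, where 13.5% and 20.1% of all genes fell. The summed hepatocyte markers had a median of 112737 CPM at baseline and 80641 CPM after PHx in WT, and of 70074 and 42879 CPM in KO (their ranges are given with the genotype comparisons). Of those 5 markers *Ttr* was called lower in WT, and *Ttr* and *Serpina1a* in KO. The cholangiocyte markers *Epcam*, *Krt19* and *Krt7* rose in KO. Of the macrophage markers *Adgre1*, *Clec4f* and *Csf1r* fell in KO, and in WT *Csf1r* fell and *Cd68* rose. The endothelial marker *Kdr* fell in both genotypes and *Lyve1* rose in KO, and the stellate markers *Lrat* and *Reln* fell in KO. All 5 proliferation genes were called higher in WT and 0 in KO (medians 6.58 and 1.25). The part of these in the response was not tested.

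The members that fell in both genotypes were 5: *Cyp2c70*, *Cyp2d22*, *Cyp2d9*, *Cyp2j6* and *Cyp2u1*, which is 71.4% of the 7 called in WT and 41.7% of the 12 called in KO. With the mouse as a block 11 fell in both, which is 78.6% of the WT list and 68.8% of the KO list. These were the same genes without *Cyp2d9*, and in addition *Cyp2c23*, *Cyp2c29*, *Cyp2c50*, *Cyp2c54*, *Cyp2c67*, *Cyp2d10* and *Cyp2j5*. For neither fit was the matching share over all genes computed. *Cyp2c70* was at 123, 65.6, 128, 206 and 476 CPM after PHx in WT, 4.35-fold below baseline (log2 fold change -2.12, SE 0.51, adjusted p = 0.00758), and at 73.7, 27.8, 124, 48.7 and 268 CPM in KO, 4.46-fold below (log2 fold change -2.16, SE 0.52, adjusted p = 0.0056). In each genotype every library after PHx was below every baseline library. *Cyp2u1* fell 3.89-fold in WT (log2 fold change -1.96, SE 0.39, adjusted p = 0.00228) and 3.73-fold in KO (log2 fold change -1.90, SE 0.40, adjusted p = 0.00282), also without overlap. *Cyp2j6* fell from a mean of 97.2 ± 10.9 to 55 ± 15.6 CPM in WT (log2 fold change -0.82, SE 0.19, adjusted p = 0.00564) and from 133 ± 18.2 to 66.7 ± 12.8 CPM in KO (log2 fold change -0.99, SE 0.19, adjusted p = 0.00171). By library size alone its WT call was lost (log2 fold change -0.45, adjusted p = 0.101), as was that of *Cyp2d22* (-0.49, adjusted p = 0.111). The WT call of *Cyp2d22* was lost as well without the filter on low counts (adjusted p = 0.0889) and without any one of WT mice 3, 4 and 5 at baseline or 1, 4 and 5 after PHx (adjusted p 0.0539 to 0.150). Leaving out KO mouse 7 at baseline or 11 after PHx, which enter this comparison only through the shared fit, gave adjusted p of 0.0649 and 0.0604. *Cyp2d9* fell less, by 0.85 on the log2 scale in WT (adjusted p = 0.0285) and by 0.80 in KO (adjusted p = 0.0286), and its calls were lost with the mouse as a block (adjusted p = 0.0600 and 0.0501). They were also lost without any one of WT mice 3, 4 and 5 at either stage (adjusted p 0.0528 to 0.0945), and without KO mouse 11 or 12 at baseline or 7, 8 or 11 after PHx (adjusted p 0.0508 to 0.0777). The WT call was lost too by library size alone and without the filter on low counts (adjusted p = 0.0647 and 0.0749), and the KO call in the fit of the KO libraries alone (adjusted p = 0.0605).

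Some calls stood in one genotype only, which is not a tested difference. *Cyp2d40* was called in WT, at 48.9, 16.7, 14.3, 21.3 and 28.8 CPM after PHx (log2 fold change -1.23, SE 0.39, adjusted p = 0.0301). It was not called in KO, at 10.2, 3.82, 23.4, 5.67 and 17.4 CPM (log2 fold change -0.85, SE 0.39, adjusted p = 0.0977). Its fall in KO was called with a mean per time point (-0.96, adjusted p = 0.0212) and without KO mouse 10 after PHx (-1.245, adjusted p = 0.0135). Its WT call was lost in 7 of the 10 fits without 1 library, with adjusted p up to 0.0924 without WT mouse 4 after PHx. The other 6 left out the first WT library or mouse 3 or 4 at baseline, or mouse 2, 3 or 5 after PHx (adjusted p 0.0531 to 0.0760). It was also lost by library size alone and without the filter on low counts (adjusted p = 0.0734 and 0.0519). *Cyp2j5* was called in KO, at 24.4, 14.4, 115, 114 and 180.5 CPM (log2 fold change -1.92, SE 0.67, adjusted p = 0.0381). In WT it was at 526, 29, 333, 35.1 and 426 CPM, split between mice 1, 3 and 5, which were high, and mice 2 and 4, which were low (log2 fold change -1.71, SE 0.67, adjusted p = 0.0766), and it was called with the mouse as a block (adjusted p = 0.0389). Its KO call was lost without any one KO baseline library or KO mouse 7, 8 or 11 after PHx, with adjusted p between 0.0532 and 0.0989. *Cyp2c29* was called in neither, at 1486, 133, 80.4, 182 and 1694 CPM in WT and 232, 97.8, 798, 274 and 1451 CPM in KO, and in both with the block (log2 fold change -3.59, adjusted p = 0.0137 and -1.90, adjusted p = 0.0485).

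*Cyp2c39* was the single member called higher after PHx in WT, at 1.66, 2.74, 2.85, 0.177 and 4.95 CPM (log2 fold change 2.01, SE 0.68, adjusted p = 0.0416). The call was lost with the block (adjusted p = 0.143) and in 7 of the 10 fits without 1 library (adjusted p 0.0559 to 0.0999). Those fits left out the first library or mouse 2, 4 or 5 at baseline, or mouse 2, 3 or 5 after PHx. The call was also lost without the filter on low counts and in the fit of the WT libraries alone (adjusted p = 0.0521 and 0.0533). In KO it was at 0.689, 0.461, 2.33, 0.695 and 1.04 CPM (log2 fold change -0.67, SE 0.65, adjusted p = 0.446). *Cyp2s1* was the single member called higher in KO (log2 fold change 4.67, SE 1.22, adjusted p = 0.00919), again on the library of mouse 11, without which the log2 fold change was 2.08 (adjusted p = 0.0949), and with the block the call was lost (adjusted p = 0.144). At baseline *Cyp2s1* was at 0, 0.10, 0, 0.183 and 0 CPM in WT and at 0.465, 0.296, 0.138, 0 and 0.235 CPM in KO.

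No member was called for a difference between the genotypes in the PHx response, against 0.164% of all genes higher and 0.225% lower (edgeR quasi-likelihood test). At an unadjusted p under 0.05 the counts were 0 higher and 3 lower: *Cyp2c65* (log2 difference -4.13, SE 1.30), *Cyp2c39* (-2.68, SE 0.94) and *Cyp3a59* (-1.19, SE 0.43), with adjusted p of 0.176, 0.217 and 0.225. DESeq2 called 0. *Cyp2c65* was called without KO mouse 10 after PHx (-4.82, adjusted p = 0.0364), and *Cyp3a59* with a mean per time point (-1.37, adjusted p = 0.0211). Across the 40 genes the WT and KO responses had a Pearson r of 0.55, given as a description, since genes are not independent replicates.

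**Figure D4:**
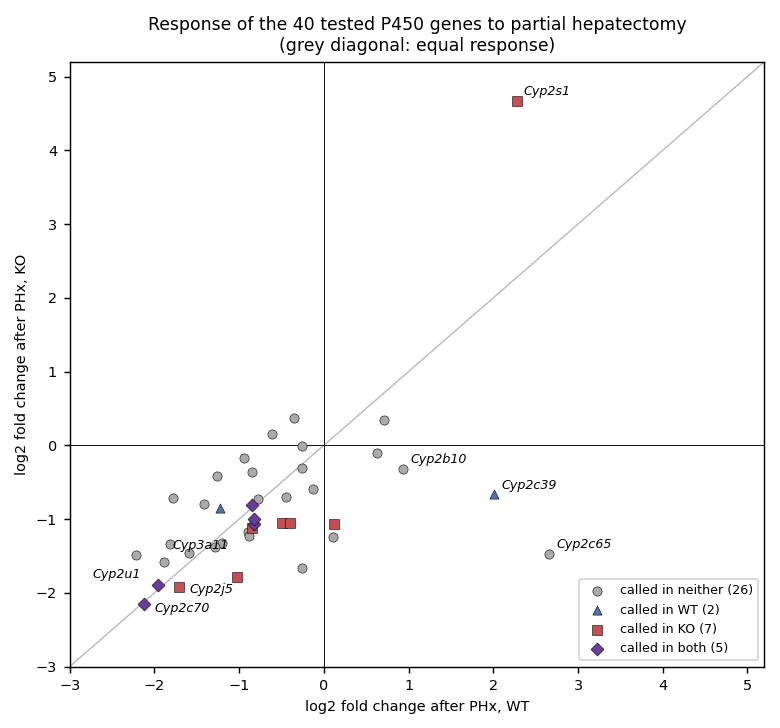
Log2 fold change after PHx in WT (x axis) and KO (y axis) of the 40 tested P450 genes, with symbols for the genotype in which the change was called. Most genes lie in the lower left part near the diagonal; Cyp2s1, Cyp2c39 and Cyp2c65 lie apart, and no departure from the diagonal was called.

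The libraries after PHx differed widely within each genotype. Taking the members with a baseline mean of at least 10 CPM (28 in WT, 29 in KO), the median level relative to the baseline mean of the same genotype was 62.7%, 25.8%, 51.3%, 13.1% and 65.2% in WT mice 1 to 5. In KO mice 7, 8, 10, 11 and 12 it was 22.8%, 15.5%, 57.1%, 34.7% and 89.6%. WT mice 1 and 5 and KO mice 10 and 12 were the highest of their genotypes, and WT mouse 4 and KO mice 7 and 8 the lowest. The median of the 2C genes was 61.2%, 10.2%, 14.7%, 7.27% and 66.1% of baseline in WT and 10.4%, 5.69%, 51.8%, 23.2% and 90.6% in KO. The 2 libraries of 30 h, WT mouse 1 and KO mouse 12, were among the highest of their genotypes. Within 48 h, WT mice 4 and 5 differed widely, while KO mice 7 and 8 were both low.

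Proliferation genes differed between the same libraries. The summed level of *Mki67*, *Top2a*, *Ccna2*, *Ccnb1* and *Cdk1* was 248, 1.22, 42.8, 1.35 and 845 CPM in WT mice 1 to 5 after PHx and 9.80, 27.4, 504.1, 77.2 and 10.04 CPM in KO mice 7, 8, 10, 11 and 12. WT mice 1 and 5 were high in both these genes and the 2C genes, and WT mice 2 and 4 low in both. KO mouse 12 was high in the 2C genes with little proliferation RNA. Without both 30 h libraries, an alternative chosen after seeing the data, 14 members fell and 1 rose in WT, against 10.1% and 12.7% of all genes, and 20 fell and 1 rose in KO, against 10.4% and 16.2%. After PHx 4 members were then higher and 13 lower in KO than in WT, against 15.1% and 6.85% of all genes. What made the libraries of one group differ was not tested.

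**Figure D5:**
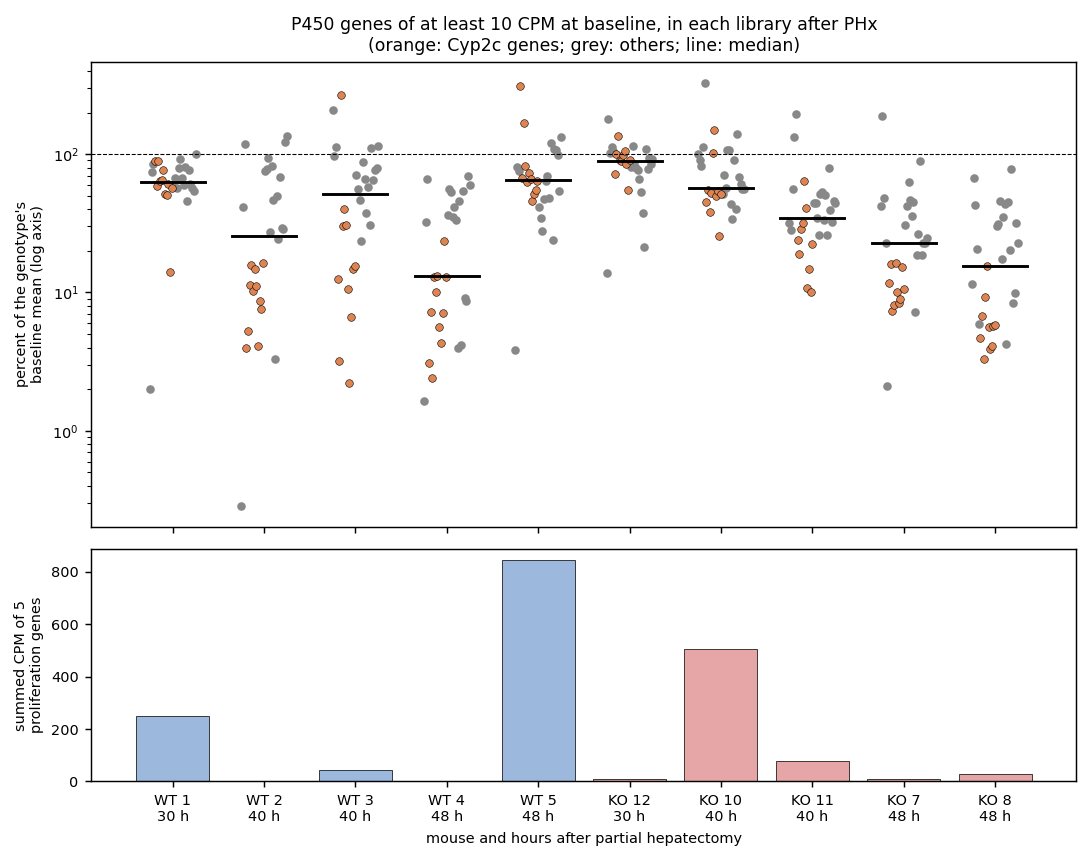
Upper panel: level of each P450 gene with at least 10 CPM at baseline in each library after PHx, as a percent of its genotype's baseline mean (log axis), by mouse and hours, with Cyp2c genes in orange and the median of all as a line. Lower panel: summed CPM of 5 proliferation genes in the same libraries. The medians run from 13.1% to 65.2% in WT and from 15.5% to 89.6% in KO.

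The other named members behaved as follows after PHx. *Cyp3a11* was at 4916, 2503, 6681, 757 and 8563 CPM in WT and at 2735, 1186, 7271, 3853 and 11204 CPM in KO, a wide spread within each genotype and no call in WT (adjusted p = 0.235) or KO (adjusted p = 0.0901). Without KO mouse 12 its fall in KO was called (log2 fold change -1.66, adjusted p = 0.0268). *Cyp2a5* was at 219.7, 122, 286, 95.2 and 239 CPM in WT and at 368, 131, 176, 55.8 and 352 CPM in KO, with no call in either genotype. *Cyp2a4* was at 0.305, 0.0435, 31.7, 0.248 and 0.584 CPM in WT and at 13.5, 3.69, 32.3, 10.3 and 4.5 CPM in KO. WT mouse 3 was again the one high WT library. Without it the difference of KO from WT after PHx was called (log2 fold change 5.39, adjusted p = 0.0323). The WT response was not called (log2 fold change -1.20, SE 1.52, adjusted p = 0.62) and turned with the libraries of this mouse. It was -5.63 without the one after PHx (adjusted p = 0.0313), which keeps the 73.2 CPM at baseline, and 3.40 without the baseline one (adjusted p = 0.144). *Cyp2d26* was at 879, 782, 839, 398 and 609 CPM in WT and at 274, 269.8, 820.2, 390.5 and 582 CPM in KO, with no call in either genotype. Its fall in KO was called with the mouse as a block (log2 fold change -0.82, adjusted p = 0.0451) and with a mean per time point (-0.80, adjusted p = 0.00836). The fall was called as well without KO mouse 10 after PHx (-1.01, adjusted p = 0.00668). *Cyp2r1* fell in KO (log2 fold change -1.05, SE 0.31, adjusted p = 0.0177) and was not called in WT (log2 fold change -0.50, SE 0.31, adjusted p = 0.267). *Cyp3a25* likewise fell in KO (log2 fold change -1.05, SE 0.29, adjusted p = 0.0121) and was not called in WT (log2 fold change -0.40, SE 0.29, adjusted p = 0.343). In the fit of the KO libraries alone neither fall was called (adjusted p = 0.0562 and 0.0518), nor was that of *Cyp2r1* by library size alone (adjusted p = 0.0708). *Cyp3a16* was at 0.218, 0.0435, 0.495, 0.0709 and 0.172 CPM in WT and at 0.12, 0.307, 0.343, 0.50 and 0.284 CPM in KO, again with overlap.

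The members were also read by their known regulation. Of 8 female-biased members 7 were tested and 1, *Cyp2b9*, was called higher in KO at both stages, where 11.1% of all genes were called higher at baseline and 16% after PHx. The median log2 difference was 0.57 at baseline and 0.63 after PHx, against -0.03 and -0.01 over all genes. Besides *Cyp2b9* this list holds *Cyp2a4*, *Cyp2a22*, *Cyp2b13*, *Cyp2c40*, *Cyp2c69*, *Cyp3a16* and *Cyp3a44*, and *Cyp2c40* had a negative difference at baseline. The male-biased member *Cyp2d9* was lower in KO at both stages. Of 6 members inducible through CAR or PXR, *Cyp2b10* and *Cyp2c55* were called higher at baseline and *Cyp2b10* after PHx, against the same shares of all genes. The other 4 (*Cyp2a5*, *Cyp2c29*, *Cyp2c37* and *Cyp3a11*) were not called, and the median was -0.07 at baseline and 0.30 after PHx. The transcript of CAR, *Nr1i3*, was not called at baseline (log2 fold change -0.37, SE 0.43, adjusted p = 0.591) and was lower in KO after PHx (log2 fold change -1.20, SE 0.43, adjusted p = 0.0474). That of PXR, *Nr1i2*, was called in neither (adjusted p = 0.323 and 0.068).

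Sex-biased liver genes outside the P450 families 2 and 3 were counted in the same way. Of 11 tested female-biased genes 7 were higher in KO at baseline and 8 after PHx, with 0 lower and medians of 4.21 and 3.34, where 11.1% and 16% of all genes were higher. Of 10 male-biased genes 4 and 5 were lower, with 0 higher and medians of -1.43 and -1.27, where 4.89% and 8.2% of all genes were lower. *Sult2a1*, a steroid sulfotransferase of female liver, had 0 counts in the 5 WT baseline libraries and 4.57 to 38.6 CPM in KO; set at its bound of 3 counts over the WT group, it left the median at 4.21. *Hsd3b5*, a male-specific steroid dehydrogenase, was at 521 to 612 CPM in WT and 4.05 to 36.0 CPM in KO at baseline. In the growth hormone pathway *Ghr*, the growth hormone receptor, was lower in KO at both stages (log2 fold change -1.51, SE 0.33, adjusted p = 0.00355 at baseline), *Igf1*, its main hepatic target, was lower at both (-0.65 and -0.85), and *Cux2*, a repressor of male-biased genes in female liver, also counted among the female-biased genes above, was higher at both (3.18 and 2.77). *Tox*, a further female-biased regulator, was lower at baseline, and the median over the 11 genes of this list was -0.21 at baseline and 0.09 after PHx. *Stat5b* was not called at either stage (adjusted p = 0.896 and 0.0917). After PHx 9 of the 10 male-biased genes fell in each genotype, where 8.68% of all genes fell in WT and 12.1% in KO.

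The partners of the enzymes changed in part. Of 6 electron donors and membrane partners, *Pgrmc1* was lower in KO at baseline, and *Pgrmc1*, *Pgrmc2* and *Cyb5a* after PHx, where 4.89% and 8.2% of all genes were lower. The list's medians were -0.43 and -0.55, beside -0.03 and -0.01 over all genes. *Por*, the reductase on which all of these enzymes depend, did not pass the test between genotypes (adjusted p = 0.39 and 0.675). After PHx *Por* rose in WT (log2 fold change 2.26, SE 0.36, adjusted p = 0.000424) and in KO (log2 fold change 1.57, SE 0.36, adjusted p = 0.00432), while *Cyb5b*, *Cyb5r3*, *Pgrmc1* and *Pgrmc2* fell in both, with list medians of -0.58 and -0.70. Over all genes 8.68% fell in WT and 12.1% in KO, with medians of 0.04 and 0.10. Among genes of haem synthesis *Ppox* was lower in KO after PHx, and *Fech* and *Uros* fell after PHx in KO. Among nuclear receptors and liver factors *Cebpa*, *Nr1h4*, *Nr3c1* and *Ppara* were lower in KO at baseline. Of 10 pericentral markers outside the members, *Rhbg* was higher and *Cyp2e1* lower in KO at baseline, and *Rhbg* was higher after PHx. Of 9 periportal markers *Aldh1b1* was higher at baseline and *Hsd17b13* lower after PHx. Over all genes 11.1% were higher and 4.89% lower at baseline, and 16% and 8.2% after PHx. The pericentral medians were 0.10 at baseline and -0.44 after PHx, and the periportal medians -0.20 and -0.09. In response to PHx *Cyp2e1* alone of the pericentral markers fell in WT and none was called in KO (medians -0.71 and -1.01, beside -0.84 and -1.02 over the members), while 3 periportal markers fell in WT and 4 in KO (medians -0.45 and -0.96), against the same 8.68% and 12.1% of all genes.

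Of the 53 members, 13 did not pass the filter on low counts and 4 of these, *Cyp2j7*, *Cyp2j11*, *Cyp2j12* and *Cyp2j13*, had 0 counts in all 20 libraries. The remaining 9 were *Cyp2b13*, *Cyp2b19*, *Cyp2b23*, *Cyp2c66*, *Cyp2d34*, *Cyp2j8*, *Cyp2t4*, *Cyp2w1* and *Cyp3a57*. *Cyp2j8* had 1 count in WT at baseline and 27 after PHx, a ratio of 20.5 with a 95% counting interval of 3.38 to 840, and *Cyp3a57* had 3 and 46 counts in KO at baseline and after PHx, a ratio of 12.1 (3.89 to 60.9). These intervals cover counting error only. In the fit without the filter, of these 9 *Cyp2b13* was called in KO against WT at baseline and *Cyp2d34* in KO after PHx against baseline, from 8 counts to 0 (adjusted p = 0.0363). Of the 40 tested members, 20 were called in at least 1 of the 5 comparisons, where 52.4% of all 14661 genes were, so the members' share (50%) was near the background. *Cyp2d9* and *Cyp2u1* were called in all 4 comparisons of 2 groups, as were 1.98% of all genes.

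Close copies limit how far single genes can be read. Of 198 pairs within a subfamily, 13 were at least 95% identical over the coding sequence, and 15 members belonged to such a pair. The closest were *Cyp2a4* and *Cyp2a5* (1459 of 1482 bases) and *Cyp2c68* and *Cyp2c40* (1445 of 1473). *Cyp3a25* and *Cyp3a59* were 97.5% identical, and at baseline the first was called lower in KO while the second had a log2 fold change of 0.47 (adjusted p = 0.314). *Cyp3a59* was called higher by library size alone (0.95, adjusted p = 0.0111) and in the baseline fit (0.49, adjusted p = 0.0167). *Cyp2b9* and *Cyp2b13* were 92.7% identical in coding sequence, with 1412 and 34 counts in the KO baseline libraries. *Cyp2c29* shares 142 exon bases with the pseudogene *Cyp2c53-ps* on the same strand.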

How the data were processed

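Liver RNA of 20 samples was sequenced as bulk poly(A) RNA. The authors deposited raw counts of uniquely mapped reads for 46603 Ensembl identifiers per library, on mm10, per the labels' protocols and the series' design text; 46091 identifiers had an entry in GENCODE M21. Trimming is given as fastp 0.20.0 in the design text and Trimmomatic 0.36 with FastQC 0.11.5 in the submitters' processing notes. The aligner, counter, strand setting and annotation are not given in the sources used here. Reads that map to several places are not in such counts, so levels of near-identical copies can be understated.

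The counts were tested with edgeR 4.0.16 (quasi-likelihood, TMM, filterByExpr) in 1 fit of all 20 libraries. P-values were adjusted by Benjamini-Hochberg over 14661 genes and called under 0.05. The script was tested on simulated data. Standard errors are the log2 fold change over the square root of F. Levels were compared between genes only as CPM per kb of merged exon. Alternatives were DESeq2 1.42.0, other scalings and filters, fits of the compared libraries alone, a mean per time point, the mouse as a block and each library left out. Counting intervals are exact (95%). Depth was 21634890 to 30461351 counts per library, and no 2 libraries were identical. Within a group the labels name separate mice, apart from the unnumbered first WT baseline library.

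The members and gene lists were chosen with earlier results of these data known. Counts over the lists of haem synthesis genes and of nuclear receptors and liver factors are not reported here. Values in every library are given for up to 3 members called upward and 3 called downward in each comparison, taken by size of log2 fold change (mean of at least 1 CPM in 1 group), the most abundant of each cluster, and 11 members of known sex bias, induction or function. Promoters are RefSeq's, with entries for 45 of 53 members; *Cyp2u1* was not among them.

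Both stages carry the same mouse numbers in the labels, for 4 WT and 5 KO mice, which gives the pairing. Deviations from the group means, as log2(CPM + 1), correlated at 0.00666 to 0.0961 within WT mice (-0.0770 to 0.0891 between mice) and at -0.0632 to 0.195 within KO mice (-0.229 to 0.285 between).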

Additional observations from a re-analysis of the deposited data

Results flagged for a closer look

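The single highest library was set apart from the other 4 of its group, by Dixon's test at the 95% level, for 8 of the 88 groups tested (22 members in 4 groups); chance flags about 1 in 20 groups, and groups that are almost all at 0 are flagged by a single read. No explanation was tested.

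*Cyp2a4* stood at 73.2 CPM in WT mouse 3 at baseline, against 0.275 to 1.17 CPM in the other 4, and at 31.7 CPM in WT mouse 3 after PHx, against 0.0435 to 0.584 CPM. *Cyp2c55* stood at 75.2 CPM in WT mouse 5 after PHx, against 0.744 to 21.6 CPM. *Cyp2s1* stood at 25.6 CPM in KO mouse 11 after PHx, against 0.237 to 1.602 CPM. *Cyp2c39* stood at 3.85 CPM in KO mouse 12 at baseline, against 0.793 to 1.39 CPM. *Cyp2b9* stood at 0.872 CPM in WT mouse 1 after PHx, against 0 to 0.0761 CPM. The other 2 rest on 1 or 2 reads: *Cyp2b13* at 0.0381 CPM in WT mouse 3 after PHx, and *Cyp2c65* at 0.09998 CPM in the second WT baseline library, with the other 4 libraries of each group at 0.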

How the results depend on the processing

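No log2 fold change of a named member reversed while called, and of 2123 alternative values for single members 1977 stayed on the same side of the threshold, 78 lost the call and 68 gained it. The counts of called members moved more. KO against WT at baseline gave 4 higher and 6 lower, with 8 higher by library size alone and 10 higher and 16 lower when only the compared libraries were fitted. KO against WT after PHx gave 3 and 9, with 5 and 5 by library size alone, 2 lower in the fit of the compared libraries, and 5 higher and 15 lower with a mean per time point. The WT response gave 1 higher and 6 lower, with 2 and 2 by library size alone, 0 and 3 without a filter, 0 higher in the fit of the compared libraries, 0 and 14 with the mouse as a block, 13 lower by DESeq2, 17 lower with a mean per time point and 14 lower without both 30 h libraries. The KO response gave 1 and 11, with 0 higher under a filter of 1 CPM in 5 libraries or with the mouse as a block (16 lower), and 5, 27 and 20 lower in the fit of the compared libraries, with a mean per time point and without both 30 h libraries. For the difference in response, 1 member was lower with a mean per time point, and the block gave 0. Leaving out 1 library gave 4 to 5 higher and 4 to 7 lower at baseline, 2 to 5 and 6 to 15 after PHx, 0 to 1 and 3 to 11 in the WT response, 0 to 1 and 6 to 19 in the KO response, and 0 and 0 to 1 for the difference. The cause of these moves was not tested. Depth limits members near 0 counts.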
